A study of Mus musculus with 9 samples.

Results

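Haematopoietic stem and progenitor cells sorted as CD144+CD45+ were compared with endothelial cells sorted as CD144+CD45-, both from the aorta-gonad-mesonephros region, the embryonic trunk tissue around the dorsal aorta. The first population is called HSPC and the second EC. CD144, or VE-cadherin, is the adhesion protein of endothelial junctions and is encoded by Cdh5, while CD45, encoded by Ptprc, is a receptor tyrosine phosphatase of leukocytes. All samples came from untreated C57Bl6 mouse embryos at stage E11.5, and each population was measured on 3 arrays, chosen by their sort label. CD144-CD45+ blood cells, called HC, had 3 more arrays, so that the comparison used 6 of the 9 arrays of the study. HC gave part of the estimate of spread and are otherwise quoted only as a level. Of 21115 probe sets, 20405 carried 1 gene symbol and entered the comparison, which is all named genes of the table. The labels do not give the number of embryos or cells behind an array, nor whether the arrays of a population came from separate pools, and the spread behind every p-value is that between these arrays, which may be only technical.

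In the mid-gestation embryo, certain endothelial cells of the dorsal aorta turn into blood stem and progenitor cells, round up and leave the vessel wall. Such cells keep endothelial surface proteins for some time after they begin to display CD45. The transition is known to need Runx1 and is accompanied by the loss of flattened shape, of the junctions to neighbouring endothelium and of contact with the basement membrane. Embryonic macrophages from the yolk sac also live in this region, and they carry CD45 as well. Both sorted populations therefore share CD144, and the comparison asks what accompanies CD45 within the CD144+ gate.

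Levels are log2 expression values on the authors' normalized scale, and a difference is HSPC minus EC on that scale, so that a positive value means higher in HSPC and a difference of 1 is 2-fold. A gene was called when its adjusted p in limma, corrected over all 20405 genes, was under 0.05. The arrays give no detection calls, and 1289 genes of olfactory and vomeronasal receptors, seldom used outside sensory tissue, were taken to set the background level at their 95th percentile, 4.69. Where the lower population lay at or under that level, the difference is only a bound and is written as "or more" or "or lower". Beside the largest and smallest differences of each gene list and family, some genes are named as examples chosen after their values were seen. Arrays are bulk measurements, in which fewer cells of a type and less RNA per cell cannot be told apart.

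The sorted proteins' genes were read first. Ptprc stood at 8.62, 9.13 and 8.93 on the HSPC arrays, against 4.50, 4.39 and 4.37 on the EC arrays. Every HSPC array lay far above every EC array, and the difference was 4.21 or more (adjusted p = 3.44e-07). Cdh5 stood at 11.11, 9.76 and 10.54 on the HSPC arrays, against 11.84, 11.56 and 11.68 on the EC arrays. HSPC replicate 1 lay close to the EC arrays and replicate 2 furthest below them, without overlap, and the difference of -1.23 was not called (95% interval -2.07 to -0.38, adjusted p = 0.0574). Without HSPC replicate 1 or HC replicate 3 it passed, with adjusted p-values of 0.0207 and 0.0354. In HC, Cdh5 averaged 5.79. Both populations thus carried Cdh5 RNA, and Ptprc RNA above background was found in HSPC alone of the 2.

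Of the 20405 genes, 16.5% were called, 8.55% higher in HSPC (1745 genes) and 7.94% lower (1621 genes). Increases made up 51.8% of the calls, and 41.5% when each array was first centred on its median. Increases reached further than decreases. Of calls of at least 4-fold, 236 were increases and 104 decreases, and of at least 8-fold, 94 were increases and 0 decreases, with extremes of 5.70 and -2.84. The HSPC and EC arrays did not overlap for 28.2% of all genes. Of 13081 genes above background in HSPC or EC, 10891 had a 95% interval within 2-fold in either direction, while 380 had an interval reaching past 2-fold and were not called.

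**Figure D1:**
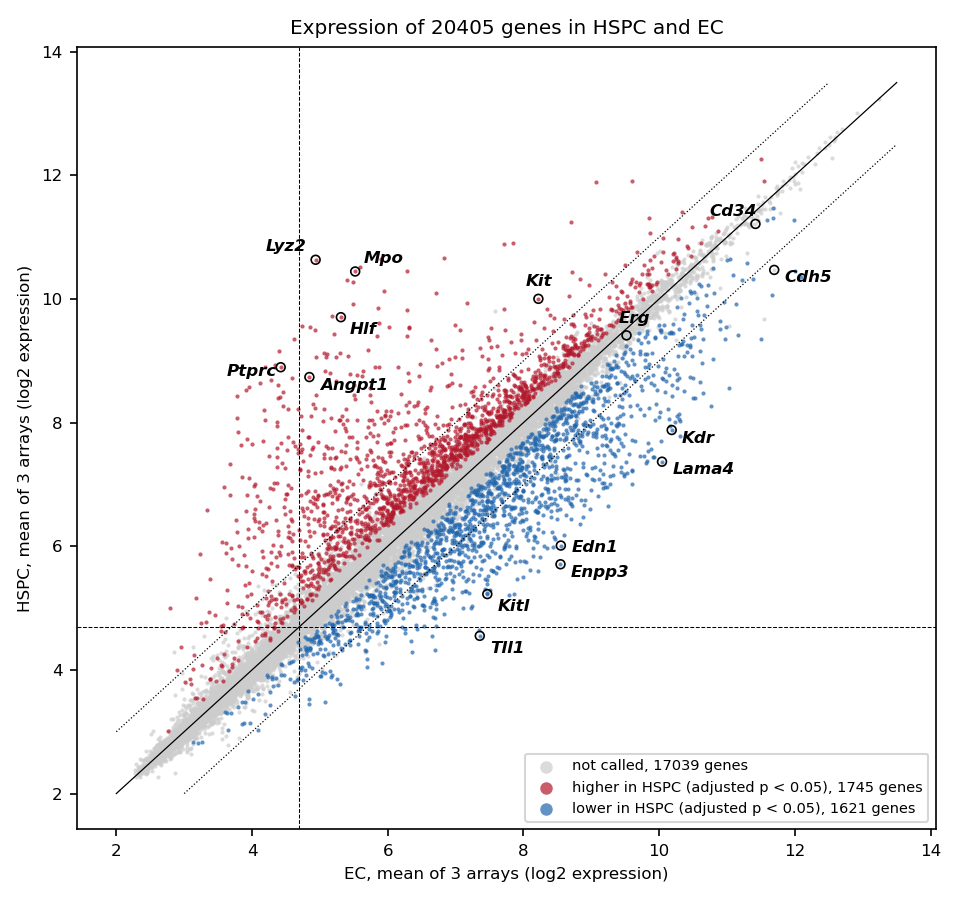
Mean log2 expression of 20405 genes in HSPC (vertical axis) and EC (horizontal axis), each the mean of 3 arrays; red points are 1745 genes called higher in HSPC, blue points 1621 called lower, grey points not called. The solid line marks equal levels, the dotted lines 2-fold differences and the dashed lines the background level of 4.69; Lyz2 and Mpo stand far above the solid line, Enpp3 and Tll1 below it, and Erg and Cd34 on or near it.

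Correlation between arrays was 0.985 to 0.992 within HSPC, 0.992 to 0.993 within EC and 0.945 to 0.971 between the populations. The HSPC arrays differed among themselves. Of all genes, 2.8% were called at least 2-fold higher in HSPC (572 genes) and 3.18% at least 2-fold lower (649 genes). Among the increases, the median distance from the EC mean was 1.51, 2.11 and 1.80 for replicates 1, 2 and 3. Among the decreases it was -1.12, -1.77 and -1.45. HSPC replicate 1 was the nearest of the 3 to EC for 70.1% of the increases and 86.1% of the decreases.

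The 15 largest called increases were led by Lyz2, a lysozyme of myeloid cells. Lyz2 stood at 10.60, 10.87 and 10.44 on the HSPC arrays, against 5.57, 4.90 and 4.33 on the EC arrays. The arrays of the populations lay over 4 units apart in log2, a difference of 5.70 (SE 0.26, adjusted p = 3.42e-06). Mpo stood at 9.85, 10.88 and 10.60 on the HSPC arrays, against 6.43, 4.98 and 5.15 on the EC arrays, with EC replicate 1 the highest of the EC arrays and still below every HSPC array (difference 4.92, adjusted p = 5.57e-05). The others were the ITAM adaptor Tyrobp (4.92), the chemokine Ccl3 (4.91), the complement chains C1qb (4.83) and C1qc (4.76), the GTPase Rac2 (4.79), the tetraspanin Cd53 (4.46 or more), the Wave complex subunit Nckap1l (4.61 or more), Ms4a6b (4.20 or more), the anaphylatoxin receptor C3ar1 (4.68), the receptor Gpr171 (3.74 or more), the adaptor Fyb (3.88 or more), Cd52 (3.84 or more) and the cathepsin Ctss (4.25 or more).

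The 15 largest called decreases were led by Enpp3. It stood at 6.24, 5.06 and 5.82 on the HSPC arrays, against 8.52, 8.56 and 8.55 on the EC arrays. The EC arrays lay within 0.1 of each other, and every HSPC array lay below them by more than 2 (difference -2.84, SE 0.25, adjusted p = 0.000114). Tll1 stood at 4.97, 3.71 and 4.97 on the HSPC arrays, against 7.31, 7.18 and 7.58 on the EC arrays, and its HSPC mean lay at background (difference -2.48 or lower, adjusted p = 0.000354). The others were the transcription factor Ebf1 (-2.46 or lower), the endothelial laminin chain Lama4 (-2.67), the complement inhibitor Cd59a (-2.63), the fatty acid binding protein Fabp4 (-2.61), the lipid phosphatase Plpp3 (-2.61), the caveolar ATPase Ehd2 (-2.59), the potassium channel subunit Kcne3 (-2.56), the vasoconstrictor Edn1 (-2.54), the growth factor binder Igfbp3 (-2.52), the matrix genes Sparcl1 (-2.50) and Bgn (-2.49), the receptor Gpr182 (-2.48) and the mechanosensitive channel Piezo2 (-2.48). Edn1 varied within HSPC, at 7.06, 5.08 and 5.90, against 8.84, 8.53 and 8.28 in EC.

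The promoters of 4 genes show what lies upstream of the strongest differences in each direction. Lyz2, the lysozyme of macrophages and other myeloid cells, and Mpo, the peroxidase of myeloid granules, had the largest increases of the genes named above. Enpp3, a nucleotide-hydrolysing ectoenzyme, and Tll1, a metalloproteinase of the tolloid family, had the largest decreases. Each line gives the 250 bases before the RefSeq start of the gene on GRCm38.p6, read 5′ to 3′ on the gene's strand, with any match to one of 8 searched motifs in capitals.
Lyz2 (chr10:117282273-117282522, minus strand): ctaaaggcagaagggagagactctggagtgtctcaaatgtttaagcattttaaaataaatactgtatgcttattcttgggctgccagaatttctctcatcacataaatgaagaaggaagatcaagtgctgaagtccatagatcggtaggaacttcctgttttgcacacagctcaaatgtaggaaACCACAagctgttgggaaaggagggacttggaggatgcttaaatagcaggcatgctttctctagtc
Mpo (chr11:87793534-87793783, plus strand): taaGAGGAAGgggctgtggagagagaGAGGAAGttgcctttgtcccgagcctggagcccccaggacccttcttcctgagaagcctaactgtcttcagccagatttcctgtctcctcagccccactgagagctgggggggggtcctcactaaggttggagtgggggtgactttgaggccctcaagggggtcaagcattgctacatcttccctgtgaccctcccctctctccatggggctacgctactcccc
Enpp3 (chr10:24836196-24836445, minus strand): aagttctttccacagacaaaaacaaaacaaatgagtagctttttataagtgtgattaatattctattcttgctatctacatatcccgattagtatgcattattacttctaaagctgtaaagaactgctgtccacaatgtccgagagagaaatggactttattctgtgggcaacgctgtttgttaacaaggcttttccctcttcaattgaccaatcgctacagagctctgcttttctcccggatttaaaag
Tll1 (chr8:64206009-64206258, minus strand): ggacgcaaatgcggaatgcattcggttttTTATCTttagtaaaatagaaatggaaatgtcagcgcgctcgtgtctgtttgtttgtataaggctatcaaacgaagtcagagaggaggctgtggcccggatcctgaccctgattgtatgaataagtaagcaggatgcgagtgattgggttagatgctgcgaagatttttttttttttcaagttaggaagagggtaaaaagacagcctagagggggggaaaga

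The motifs were searched on both strands in the same window of every measured gene with a RefSeq promoter. The PU.1 motif GAGGAAG, whose last 5 letters it shares with the ETS motif CCGGAAG, was present in 20.5% of 458 promoters of genes called at least 2-fold higher in HSPC, in 14.9% of 477 promoters of genes called at least 2-fold lower, and in 10.3% of all 15803. It occurs in Mpo on the strand shown. The RUNX motif TGTGGT was present in 16.2% of the promoters of increases, 10.3% of those of decreases and 11.9% of all; the Lyz2 window holds it once, on the opposite strand. The GATA motif AGATAA was present in 7.42% of the promoters of increases, 4.61% of those of decreases and 8.77% of all, and the E-box CATCTG in 13.8%, 9.64% and 12.2%. The Tll1 window holds the GATA letters once, on the opposite strand. The KLF/SP motif GGGCGGG was present in 29.7% of the promoters of increases, 49.9% of those of decreases and 33.2% of all. Promoters of decreases were also richer in G and C, at 61.8% against 55.9% over all promoters and 55.7% for increases, and the part of base composition in these shares was not tested. The other 3 motifs, ETS itself, the CEBP motif TTGCAAT and the SOX motif ACAATGG, were present in 5.9%, 2.4% and 0.873% of the promoters of increases and in 3.98%, 0.629% and 3.56% of those of decreases, against 9.52%, 1.63% and 2.3% of all. Such matches describe letters and not binding.

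Of 30 measured transcription factors of blood stem cells, 15 were called higher in HSPC and 0 lower (2 without HSPC replicate 1), with a median difference of 0.54, against 0.01 over all genes. Apart from Spi1, Myb and Runx1, the largest was Hlf, a PAR bZIP factor that marks blood stem cells, at 9.68, 9.62 and 9.81 on the HSPC arrays, against 5.25, 5.03 and 5.66 on the EC arrays. The 3 HSPC arrays agreed within 0.2 and lay far above EC (difference 4.40, adjusted p = 9.8e-07), and HC averaged 5.72. Ikzf1, or Ikaros, a zinc finger factor of blood lineages, rose by 3.77, and its relative Ikzf2 by 3.02. Meis1, a Hox cofactor of blood stem cells, stood at 9.03, 8.53 and 8.78 on the HSPC arrays, against 7.41, 6.59 and 6.82 on the EC arrays, with no overlap (difference 1.84, adjusted p = 0.000363). Further called increases were the repressors Gfi1 (1.14) and Gfi1b (1.90), which silence endothelial genes in emerging blood cells, Bcl11a (1.90), the megakaryocyte and erythroid factor Nfe2 (2.84) and the bHLH factor Lyl1 (0.74).

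Another set of regulators shared by endothelium and blood was not called in either direction. Erg, an Ets factor needed by both lineages, stood at 9.67, 9.27 and 9.29 on the HSPC arrays, against 9.52, 9.48 and 9.56 on the EC arrays, so that the arrays overlapped. The 95% interval of its difference was -0.43 to 0.22. Its relative Fli1 had a difference of -0.31 (95% interval -0.55 to -0.06), Gata2 0.29 (-0.03 to 0.61), Tal1 0.24 (-0.09 to 0.56), Lmo2 0.25 (0.05 to 0.46) and Mecom -0.03 (-0.55 to 0.50). All these intervals lay within 2-fold. Without HSPC replicate 1, Fli1 was called lower (-0.40, adjusted p = 0.0349). These genes were measured well above background in both populations, with HSPC means between 7.60 and 9.69.

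Among 15 myeloid transcription factors, 8 were called higher and 1 lower. Batf, an AP-1 family factor of immune cells, rose by 2.31 and Irf8, which directs macrophage development, by 1.40. Irf5 rose by 1.27 and Zeb2 by 1.28, while Cebpd fell by 0.50. Without HSPC replicate 2 or EC replicate 3 the increases numbered 5. In the interferon regulatory factor family, 6 of 8 members were called higher and 0 lower. Cebpa, needed for granulocyte progenitors, rose by 1.14, but lost its call without any 1 of HSPC replicates 2 or 3 or EC replicates 2 or 3 (adjusted p up to 0.081).

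Receptors for blood growth factors and cytokines rose in HSPC for 16 of 26 members (61.5%) and fell for 2. The 7.69% called lower is near the 7.94% of all genes. Kit, the receptor of stem cell factor, stood at 10.16, 9.91 and 9.94 on the HSPC arrays, against 8.18, 8.14 and 8.34 on the EC arrays. All HSPC arrays lay above all EC arrays, EC themselves were well above background, and HC averaged 7.51 (difference 1.78, adjusted p = 1.33e-05). Its ligand Kitl ran the other way, at 5.71, 4.73 and 5.24 on the HSPC arrays, against 7.31, 7.62 and 7.47 on the EC arrays, without overlap (difference -2.24, adjusted p = 0.000225). Flt3, the receptor of multipotent progenitors, rose by 2.62, the granulocyte colony-stimulating factor receptor Csf3r by 2.54, the shared beta chain Csf2rb by 2.05 or more and Il17ra by 2.70. Il12rb2, an interleukin-12 receptor chain of the interleukin receptor family, stood at 7.25, 7.52 and 7.26 on the HSPC arrays, against 4.53, 4.44 and 4.36 on the EC arrays (difference 2.65 or more, adjusted p = 7.84e-07). The 2 decreases were receptors of the interleukin-6 family, Lifr, for leukaemia inhibitory factor, by 1.76, and the common signal transducer Il6st by 0.80, while the interleukin-6 receptor chain Il6ra rose by 1.96. The erythropoietin receptor Epor was not called (0.14, 95% interval -0.08 to 0.36).

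In the angiopoietin system a ligand was higher in HSPC and its receptors lower, the reverse of Kit and Kitl. Angpt1, the activating ligand of the Tie receptors, stood at 9.07, 8.39 and 8.75 on the HSPC arrays, against 5.18, 4.61 and 4.75 on the EC arrays. Every HSPC array lay at least 3 above every EC array, and HC averaged 5.96 (difference 3.89, adjusted p = 4.56e-06). Its receptor Tek, or Tie2, stood at 9.37, 7.80 and 8.42 on the HSPC arrays, against 10.06, 9.77 and 10.07 on the EC arrays, lower in HSPC by 1.44 (adjusted p = 0.0217). Tek lost its call without HSPC replicate 3 and without EC replicate 1 or 3, with adjusted p-values up to 0.0724. The related receptor Tie1 fell by 1.21 and the phosphatase Ptprb, which acts on Tek, by 1.91. The competing ligand Angpt2 fell by 0.68.

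**Figure D2:**
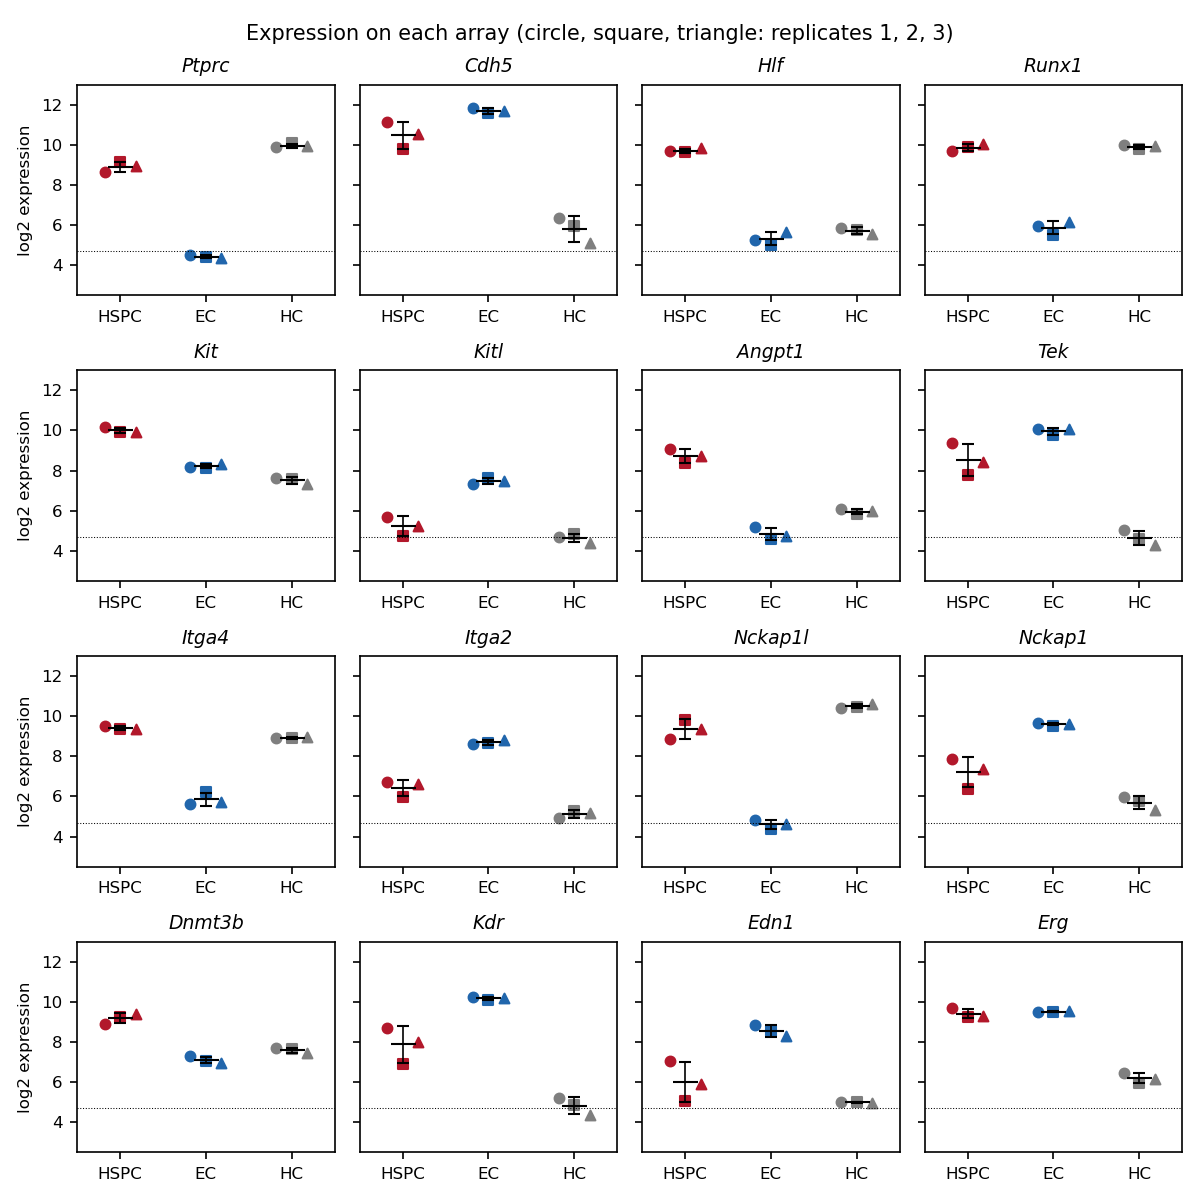
Log2 expression of 16 genes on each of 9 arrays, in HSPC, EC and HC; points are arrays (circle, square and triangle for replicates 1, 2 and 3), bars the mean and SD of 3 arrays, and the dotted line the background level of 4.69. Kit, Angpt1, Itga4 and Nckap1l are higher in HSPC than in EC, Kitl, Tek, Itga2 and Nckap1 lower, Erg is level in both, and Hlf, Kit, Angpt1 and Dnmt3b are higher in HSPC than in HC.

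Of 17 stem and progenitor surface markers, 9 were called higher and 4 lower. Spn, or CD43, an early surface sialoprotein of blood progenitors, rose by 1.79. Cd34, carried by both endothelium and blood progenitors, had a difference of -0.21 (95% interval -0.47 to 0.06), and Procr, the protein C receptor used to purify blood stem cells, one of 0.25 (-0.30 to 0.81). Itga2b, or CD41, rose by 0.84 but lost its call without EC replicate 1 or 3 (adjusted p up to 0.0983). Cd93 fell by 1.0. Without EC replicate 1 the decreases numbered 2.

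Genes of leukocyte signalling and of the leukocyte actin skeleton were called higher for 33 of 37 members and lower for 0, with a median difference of 2.30 (2.28 with bounded members at their bound). The kinases Btk (3.02 or more) and Syk (1.77), the exchange factor Vav1 (2.89 or more), the adaptor Lcp2 (3.82), the phosphatase Ptpn6 (3.22) and the phosphoinositide 3-kinase subunits Pik3cd (2.18) and Pik3cg (2.04) were among them.

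For several parts of the adhesion and actin machinery, related genes moved in opposite directions. Of the kindlins, which activate integrins, the blood form Fermt3 rose by 2.50 and the widely expressed Fermt2 fell by 2.26. Of the parvins, which link integrins to actin, Parvg rose by 2.26, while Parva fell by 2.24 and Parvb by 1.90. In the Wave complex, which drives branched actin growth, the blood subunit Nckap1l stood at 8.85, 9.83 and 9.36 on the HSPC arrays, against 4.84, 4.38 and 4.64 on the EC arrays, against the opposite pattern of Nckap1, at 7.88, 6.38 and 7.38 on the HSPC arrays, against 9.64, 9.53 and 9.63 on the EC arrays. Neither gene's arrays overlapped between the populations, and HSPC replicate 1 was the lowest of HSPC for Nckap1l and the highest for Nckap1. Of the other Wave subunits, Cyfip2 rose by 1.84 and Wasf1 fell by 0.82, while Abi1 (-0.19), Brk1 (-0.07) and Wasf2 (-0.08) were not called. Rac2, the GTPase of blood cells, was among the largest increases, whereas Rac1 had a difference of -0.03 (95% interval -0.17 to 0.11). Of the coronins, Coro1a rose by 4.18 and Coro2a by 2.28, and Coro2b fell by 1.60. Of the class I myosins, Myo1f rose by 3.65 and Myo1g by 2.80, and Myo1e fell by 1.96. HC averaged 10.50 for Nckap1l, 11.20 for Rac2 and 5.70 for Nckap1. For every called increase named in this paragraph except Cyfip2 the HC mean lay above the HSPC mean, and for every called decrease below it. Cyfip2 averaged 6.99 in HSPC, 6.87 in HC and 5.16 in EC. The increases are thus shared with HC and not particular to HSPC. The part of the macrophage markers in these differences was not tested. These paralogue groups were chosen after their values were seen.

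Larger families also had called members in both directions. Of 10 Dock exchange factors, which activate Rac and Cdc42, 3 were called higher and 5 lower, against 8.55% and 7.94% of all genes. Dock2 rose by 3.91 or more, Dock10 by 2.92 or more and Dock8 by 2.03, while Dock6 fell by 1.44 and Dock4 by 1.28. Of 20 receptor tyrosine phosphatases, 3 were called higher, Ptprc, Ptpre (2.94) and Ptprj (2.54), and 7 lower, led by Ptprm (-2.32) and Ptprg (-2.23). Ptprc encodes CD45, by which the populations were sorted, so its call follows from the gate and says nothing about the family. Apart from Ptprc, only Ptpre and Ptprj were called higher. Of 19 tetraspanins with a Tspan symbol, which leaves out Cd53 and others named by CD number, 3 were called higher, led by Tspan32 (1.65 or more), and 6 lower, led by Tspan12 (-1.84). Of 70 Rab GTPases, which direct vesicle traffic, 11 were called higher (15.7%) and 7 lower (10%, near the share of all genes), with 2 to 4 decreases without HSPC replicate 2 or 3 or any 1 EC array. Rab38, of lysosome-related organelles, stood at 8.94, 8.23 and 8.15 on the HSPC arrays, against 5.74, 5.22 and 5.54 on the EC arrays, and Rab32 rose by 2.82. HC averaged 6.08 for Rab38, below every HSPC array.

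**Figure D3:**
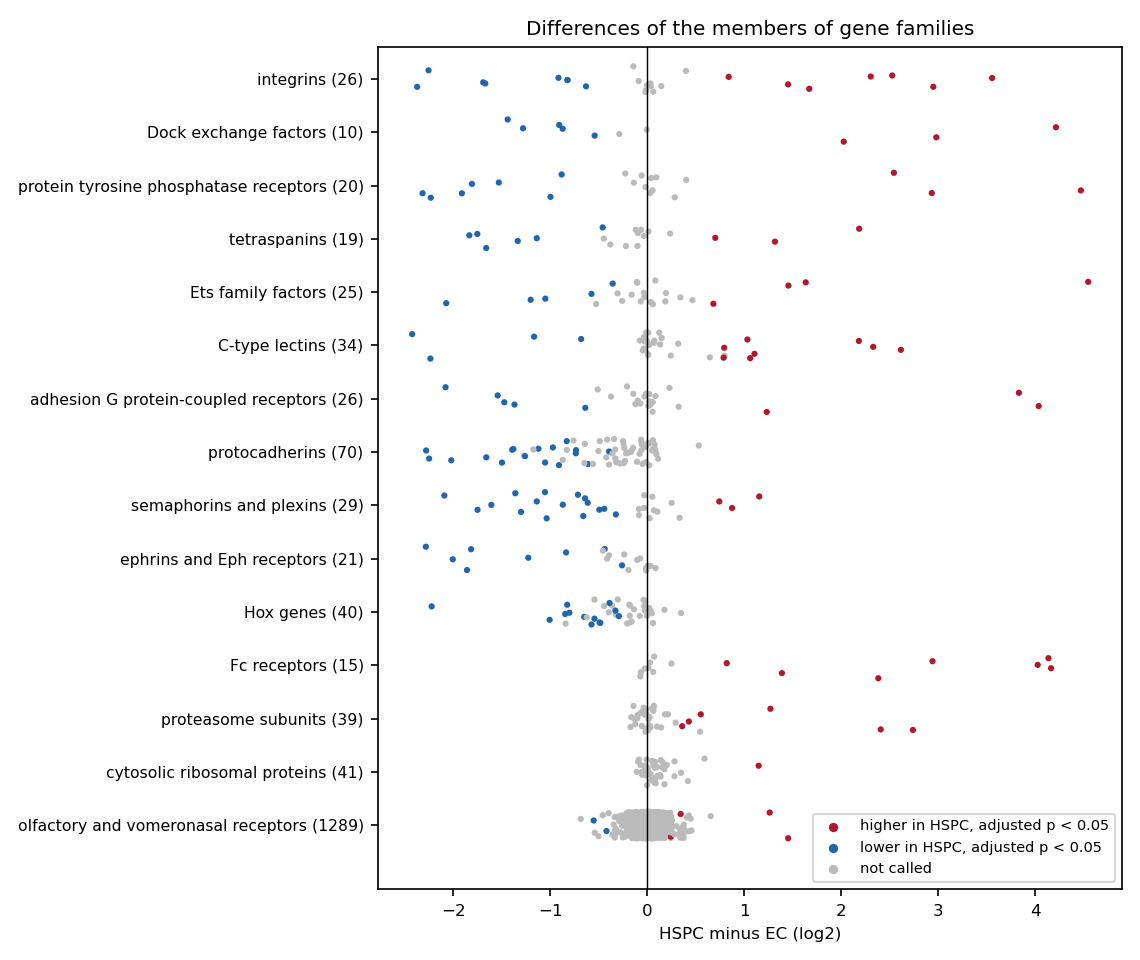
Difference between HSPC and EC (log2) of each member of 15 gene families; each point is a gene, red called higher in HSPC, blue called lower, grey not called, with the number of members in brackets and random vertical scatter. Integrins, Dock factors and receptor phosphatases have called members on both sides, protocadherins, Eph genes and Hox genes on the lower side only, and ribosomal proteins and olfactory receptors stand near 0.

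Integrins and leukocyte adhesion genes were called higher for 11 and lower for 8 of 27 members. Itga4, the alpha chain of the VLA-4 receptor for Vcam1 and fibronectin, stood at 9.51, 9.34 and 9.38 on the HSPC arrays, against 5.63, 6.22 and 5.70 on the EC arrays, without overlap (difference 3.56, adjusted p = 1.47e-06). The leukocyte chains Itgam (2.28 or more), Itgb2 (2.53) and Itgal (2.31), the hyaluronan receptor Cd44 (2.71) and the selectin ligand Selplg (3.16) rose as well. Chains of collagen and laminin receptors were among the decreases. Itga2, a collagen receptor chain, stood at 6.74, 5.98 and 6.60 on the HSPC arrays, against 8.60, 8.65 and 8.84 on the EC arrays (difference -2.26, adjusted p = 8.42e-05), Itga1 fell by 1.92 or more and the laminin receptor chain Itga6 by 0.92. The shared chain Itgb1 fell by 0.63. Vcam1, the ligand of Itga4, had a difference of 0.05 (95% interval -0.12 to 0.23).

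Macrophage markers were called higher for 23 of 25 members and lower for 0, with a median of 3.81, or 3.35 with bounded members at their bound. The log2 of their summed linear values was 12.66, 14.08 and 13.43 on the HSPC arrays, against 9.35 to 9.66 on the EC arrays, and 14.66 to 14.79 on the HC arrays. HSPC replicate 2 was highest and replicate 1 lowest. Defining macrophage genes were clearly above background in HSPC, among them Csf1r (9.50 ± 0.75 in HSPC and 4.93 ± 0.26 in EC), the adhesion receptor Adgre1 (8.21 ± 0.88 in HSPC and 4.17 ± 0.01 in EC), Mrc1 (9.44 ± 0.99 in HSPC and 5.21 ± 0.61 in EC) and Timd4 (7.89 ± 0.72 in HSPC and 4.74 ± 0.09 in EC), given as mean ± SD of 3 arrays. Of the list, Cd163 and Clec4n were at background in HSPC. The macrophage list had the same order of HSPC arrays, replicate 2 above 3 above 1, as the medians of the leukocyte, chemokine, inflammatory and lysosome lists, and its part in those results was not tested.

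Chemokines and their receptors were called higher for 16 (61.5%) and lower for 2 of 26 members (7.69%, near the 7.94% of all genes). Ccl3, Cxcl2 (4.0 or more), Ccl2 (4.06) and Ccl9 (3.53 or more), which attract myeloid cells, led the increases, and the fractalkine receptor Cx3cr1 rose by 3.47. The scavenging receptor Ackr3 fell by 1.75. Cxcr4, the stem cell homing receptor, was not called (-0.35, 95% interval -0.73 to 0.04). Of 37 inflammatory and interferon genes, 20 were called higher and 1 lower, with 13 higher without EC replicate 3. Ifitm1, an interferon-induced membrane protein, rose by 3.07, Tnf by 2.34, and the interleukin-1 genes Il1a by 1.18 or more and Il1b by 1.70 or more. Tlr1 rose by 1.31 or more and Tlr7 by 0.99 or more, whereas Tlr3, a sensor of double-stranded RNA, fell by 1.10. Lysosome genes were called higher for 15 and lower for 1 of 25 members, with Ctsc at 3.74, Lgmn at 2.60 and Gusb at 1.71. Fc receptors were called higher for 7 of 15 and Ms4a genes for 6 of 20, both with 0 lower.

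Several genes for presenting peptides on class I molecules rose. In the proteasome family of 39 subunits, 6 were called higher and 0 lower, led by the 3 inducible subunits of the immunoproteasome, Psmb9 (2.74), Psmb8 (2.41) and Psmb10 (1.27). Their constitutive relatives Psmb6 (-0.16) and Psmb7 (-0.17) were not called. The peptide transporter subunit Tap1 rose by 0.64, its partner Tapbp by 1.08, the class I heavy chain H2-K1 by 2.17 and the proteasome activator Psme1 by 0.79. The group of presentation genes was chosen after its values were seen. Its median distance from the EC mean was 0.62, 0.82 and 0.76 for HSPC replicates 1, 2 and 3, the order of the macrophage markers, whose part in it was not tested.

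Granule genes of granulocytes rose for single members. Of 18 neutrophil granule genes, 3 were called higher and 0 lower, Mpo, the serine protease Prtn3 (2.76) and Ms4a3, whose EC mean was at background, and 9 of the 18 were at background in HSPC, among them the late granule genes Ltf, Lcn2 and Mmp8. The log2 of their summed values was 10.75 to 11.35 in HSPC, 8.54 to 9.31 in EC and 13.73 to 14.06 in HC. Of 15 mast cell, basophil and eosinophil genes, 3 were called higher and 1 lower. The increases were the granule proteoglycan Srgn (2.77), the lipoxygenase Alox5 (2.10) and Prg2, which lost its call without 8 of the 9 arrays in turn. The decrease was Kitl, the ligand of Kit given above and not a granule gene. The defining mast cell genes Cpa3, Cma1, Fcer1a and Tpsb2 were at background in both populations.

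Of 17 erythroid genes, 2 were called higher in HSPC (11.8%, near the 8.55% of all genes) and 0 lower. Car2, a carbonic anhydrase, stood at 8.35, 8.29 and 7.93 on the HSPC arrays, against 6.58, 5.83 and 5.13 on the EC arrays, and Tfrc, the transferrin receptor, rose by 0.74 but lost its call in 7 of 9 fits without 1 array. The erythroid factor Klf1 (-0.12), the haem enzyme Alas2 (-0.03) and the embryonic globin Hbb-bh1 (-0.46, SD 0.49 in HSPC and 1.37 in EC) were not called. Erythroid sums varied more within EC than between the populations, at 13.07 to 13.53 in HSPC and 12.36 to 14.01 in EC, with 12.66 to 13.78 in HC. Of 19 megakaryocyte and platelet genes, 6 were called higher (31.6%), among them the ATP receptor P2rx1 (2.53) and the integrin chain Itgb3 (1.67). The list also had 3 genes called lower (15.8%, against 7.94% of all genes), and its lowest difference was -1.45. The platelet chemokine Pf4 was not called, at 8.82 to 10.59 on the HSPC arrays, against 6.10 to 9.20 on the EC arrays, where the populations overlapped (difference 2.23, adjusted p = 0.0658). It was called without HSPC replicate 1 (2.72, adjusted p = 0.0389) and without EC replicate 2 (3.04, adjusted p = 0.00801). Of 20 lymphoid genes, 2 were called higher and 3 lower, against 8.55% and 7.94% of all genes. Differences in this list, taken without bounds, ran from -2.71 to 1.49, so that the list showed no general gain. The increase in Cd79b, a chain of the B cell receptor, was 1.49, whereas Rag1, Rag2, Pax5 and Cd79a were at background in both populations.

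Endothelial surface and junction genes were called lower in HSPC for 31 of 37 members and higher for 0, with a median of -1.38. The adhesion proteins Mcam (-2.18) and Icam2 (-1.50), the angiomotin Amotl1 (-2.13), the vessel pore protein Plvap (-1.91), the guidance receptor Robo4 (-1.76) and the cell surface sialomucin Podxl (-1.61) fell. Pecam1, or CD31, kept by some leukocytes, fell by 1.41, at 9.07 ± 0.76 in HSPC and 10.49 ± 0.10 in EC. The catenins that anchor VE-cadherin to actin fell by smaller steps, Ctnna1 by 1.31, Ctnnb1 by 0.72 and Ctnnd1 by 0.62. Emcn, an endothelial sialomucin, was not called, at 10.56, 8.60 and 9.87 on the HSPC arrays, against 11.42 to 11.70 on the EC arrays. Its HSPC arrays lay below its EC arrays but spread over nearly 2 units (difference -1.86, adjusted p = 0.0619). It was called without HSPC replicate 1 (-2.31, adjusted p = 0.0302) and without HC replicate 3 (adjusted p = 0.0272). Jam3 was not called (0.05, 95% interval -0.32 to 0.42).

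The decreases stopped short of background in most of these genes. Of the 37 endothelial surface and junction genes, 0 were at background in HSPC, while 2 of 36 endothelial transcription factors were. The median distance of single HSPC arrays from the EC mean over the surface and junction genes was -0.81, -1.93 and -1.35 for replicates 1, 2 and 3. The macrophage markers had the same order of arrays, at 2.58, 4.67 and 3.64, whereas the blood stem cell transcription factors stood at 0.67, 0.45 and 0.47, with replicate 1 highest. The part of the macrophage markers in the vessel gene result was not tested.

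**Figure D4:**
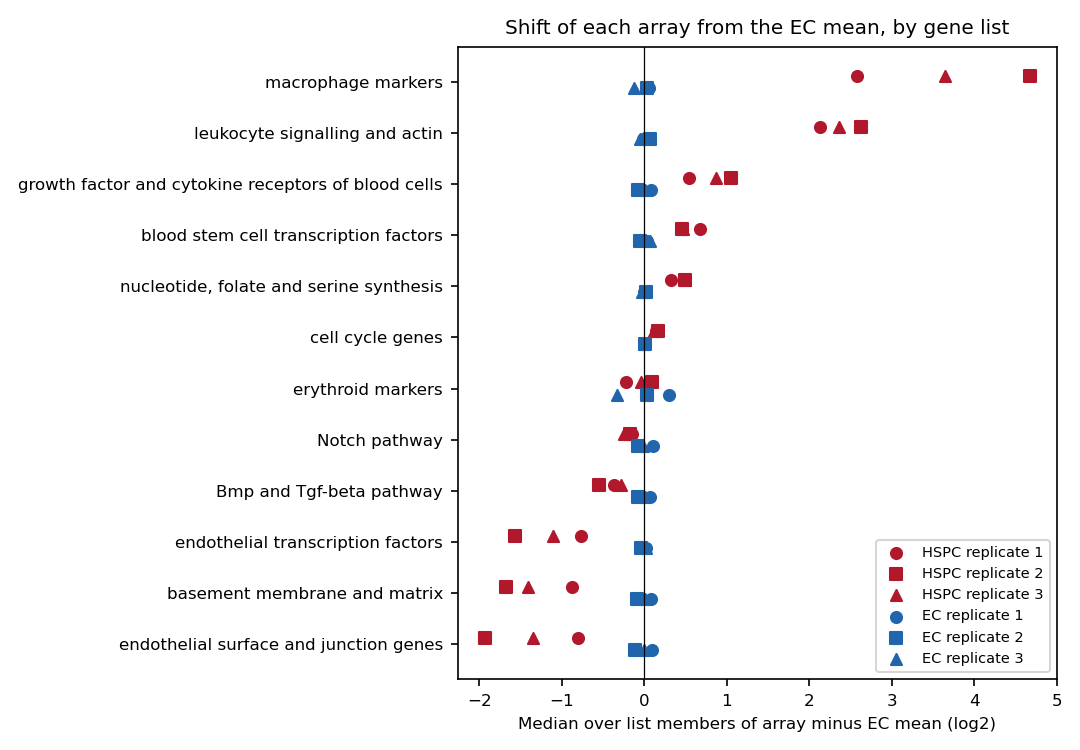
Median over the members of 12 gene lists of each array's distance from the EC mean (log2), with HSPC arrays in red and EC arrays in blue. HSPC replicate 1 (circles) lies nearest to EC for macrophage and vessel genes and furthest for blood stem cell transcription factors, and the EC arrays lie near 0 for the lists other than erythroid genes.

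Among 36 endothelial transcription factors, 23 were called lower and 0 higher, with a median of -1.23. The forkhead factor Foxc1, of vascular development, fell by 2.20, the hypoxia-inducible factor Epas1 by 2.15, Ets1 by 2.07 and the SoxF factors Sox7, Sox18 and Sox17 by 1.85, 1.60 and 1.49. Snai1 (-1.82) and Snai2 (-1.67), regulators of cell shape change in mesenchyme, and the lymphatic factor Prox1 (-1.99) fell too. Foxc2 had the most negative difference of the list, -2.34, but lost its call without EC replicate 1 (adjusted p = 0.052). Klf2, the flow-induced factor, was not called at 8.26, 7.66 and 8.84 on the HSPC arrays, against 8.32, 8.04 and 7.98 on the EC arrays, with overlapping arrays (95% interval -0.50 to 0.78). Mef2c was not called either (0.16, 95% interval -0.03 to 0.34).

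Of 21 genes of Vegf, angiopoietin and apelin signalling, 13 were called lower and 2 higher (9.52%, near the 8.55% of all genes). The Vegf receptors Flt1 (-2.16), Kdr (-2.30) and Flt4 (-2.34) and the co-receptors Nrp1 (-1.52) and Nrp2 (-2.17) all fell. The ligands Vegfa (-0.33, 95% interval -0.83 to 0.17), Vegfb (0.23, 0.03 to 0.43) and Vegfc (-0.16, -0.73 to 0.41) were not called. Apln, the apelin peptide of sprouting vessels, fell by 1.07 and the tip cell gene Esm1 by 1.57.

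Genes that respond to blood flow were called lower for 14 and higher for 2 of 24 members, with 7 decreases without EC replicate 1 and 9 without HSPC replicate 3 or EC replicate 2. Nos3, the endothelial nitric oxide synthase, fell by 1.69, Pde2a by 1.85 and the endothelin-converting enzyme Ece1 by 1.31. The channel Piezo1, which senses flow, fell by 0.89. The 2 increases (8.33%, near the 8.55% of all genes) were the cyclooxygenase Ptgs2 (2.65) and the haem oxygenase Hmox1 (2.53), both also expressed by macrophages. The part of the macrophage markers in these 2 increases was not tested. Of 22 genes of caveolae and fatty acid handling, 11 were called lower and 2 higher (9.09%, also near the share of all genes). The caveolar coat genes Cav1 (-2.16), Cav2 (-1.17), Cavin1 (-1.13) and Cavin2 (-1.72) fell, and so did Gpihbp1 (-1.32), which anchors lipoprotein lipase on endothelium. The lipase itself, Lpl, rose by 3.66. Of the Ehd family, which shape membranes, Ehd2 stood at 8.09, 5.77 and 7.17 on the HSPC arrays, against 9.51, 9.67 and 9.60 on the EC arrays, and Ehd4 ran the other way, at 8.54, 9.12 and 8.95 on the HSPC arrays, against 8.21, 7.94 and 8.05 on the EC arrays.

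Basement membrane and matrix genes were called lower for 30 of 39 members and higher for 0, with a median of -1.36. Of 10 laminin chains 5 fell, and of 44 collagens 8 fell, with 0 higher in either family. The collagen IV chains Col4a1 (-1.72) and Col4a2 (-1.55), the laminin chain Lamc1 (-1.65), the heparan sulphate proteoglycan Hspg2 (-2.13), the crosslinking enzymes Pxdn (-1.90) and Loxl2 (-1.79) and the collagen chaperone Serpinh1 (-1.44) were among the decreases. Most proteases that act on matrix were not called. Of 57 Adam and Adamts genes, 48 were not called, 1 was called higher and 8 lower (14.0%, against 7.94% of all genes), led by Adam12 (-2.16). Of 22 matrix metalloproteinases, 16 were not called, 1 was called higher, a call lost without 8 of the 9 arrays in turn, and 5 lower (22.7%), led by Mmp14 (-2.03) and Mmp2 (-1.71). Fn1, or fibronectin, was not called (-0.39, 95% interval -1.07 to 0.28).

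The Hippo effectors, which turn stretch and cell spreading into transcription, were lower. Yap1 stood at 7.03, 6.34 and 6.65 on the HSPC arrays, against 8.62, 8.53 and 8.35 on the EC arrays, without overlap (difference -1.82, adjusted p = 0.000146). Its relative Wwtr1, or Taz, fell by 1.73, and the DNA-binding partners Tead1, Tead2 and Tead4 fell by 1.59, 1.44 and 1.41, while Tead3 was not called (0.03). The target gene Ccn2 fell by 2.04. This group was chosen after its values were seen.

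Axon guidance genes, many of which steer vessel growth, were called lower for 24 (66.7%) and higher for 3 of 36 members. The 8.33% called higher is near the 8.55% of all genes. The ephrin Efna1 fell by 2.28, the venous Eph receptor Ephb4 by 2.01, Sema6a by 2.09 and the semaphorin receptor Plxnd1 by 1.75. The 3 increases were Sema4b (1.16), Sema4d (0.87) and the semaphorin receptor Plxnc1 (0.74), genes known from immune cells. Over the whole family, 8 of 21 ephrins and Eph receptors were called lower and 0 higher, with 5 decreases without HSPC replicate 2 or 3. Protocadherins, adhesion proteins of the cadherin superfamily, were called lower for 17 of 70 members (24.3%, against 7.94% of all genes) and higher for 0. The decreases were led by Pcdh17 (-2.28), Pcdh1 (-2.25) and the endothelial Pcdh12 (-2.02). Of the 70 members, 40 were at background in both populations and 48 in HSPC. Members of the clustered gamma protocadherins share exon sequence, so that single members are uncertain.

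Of 28 Notch pathway genes, 10 were called lower and 2 higher (7.14%, near the 8.55% of all genes). The receptor Notch1, which drives arterial fate and the start of blood formation, fell by 1.24, the target genes Hey1 and Hes1 by 1.57 and 0.90, and the ligand Dll1 by 1.24. Notch2 stood at 6.35, 6.65 and 6.40 on the HSPC arrays, against 5.86, 5.61 and 5.68 on the EC arrays, without overlap (difference 0.75, adjusted p = 0.00116), and the fringe Rfng rose by 0.45. The nuclear partner Rbpj was not called (0.19, 95% interval -0.08 to 0.46). Of 34 Bmp and Tgf-beta genes, 15 were called lower and 1 higher, with the endothelial receptors Acvrl1 (-1.32) and Eng (-1.19), the receptor Acvr1 (-1.43), the signal mediators Smad1 (-1.03) and Smad4 (-0.44) and the target Id1 (-1.07) among the decreases. The receptor Bmpr1a was not called (-0.04, 95% interval -0.57 to 0.49). Of 32 Wnt pathway genes, 10 were called lower and 1 higher. The receptor Fzd4 fell by 1.91 and the nuclear factor Lef1 by 1.96, while the secreted inhibitor Sfrp2 stood at 9.32, 8.95 and 8.98 on the HSPC arrays, against 7.57, 7.57 and 7.02 on the EC arrays and its relative Sfrp1 fell by 1.38.

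Of 34 genes of retinoic acid, prostaglandin and sphingosine-1-phosphate signalling, 7 were called higher, 7 lower and 20 in neither direction. Among the increases were genes of eicosanoid synthesis and response. Alox5ap, which hands arachidonic acid to the lipoxygenase, stood at 9.99, 10.27 and 10.04 on the HSPC arrays, against 6.86, 6.73 and 6.53 on the EC arrays (difference 3.39, adjusted p = 5.51e-07), Hpgds, a prostaglandin D synthase, rose by 2.83 and the prostaglandin E receptor Ptger4 by 1.10. Among the decreases were the retinoic acid receptors Rarb (-1.58), Rara (-0.79) and Rarg (-0.68) and the degrading enzyme Cyp26b1 (-0.99). The sphingosine-1-phosphate receptor S1pr1 fell by 1.16, while the exporter Spns2 rose by 0.87.

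**Figure D5:**
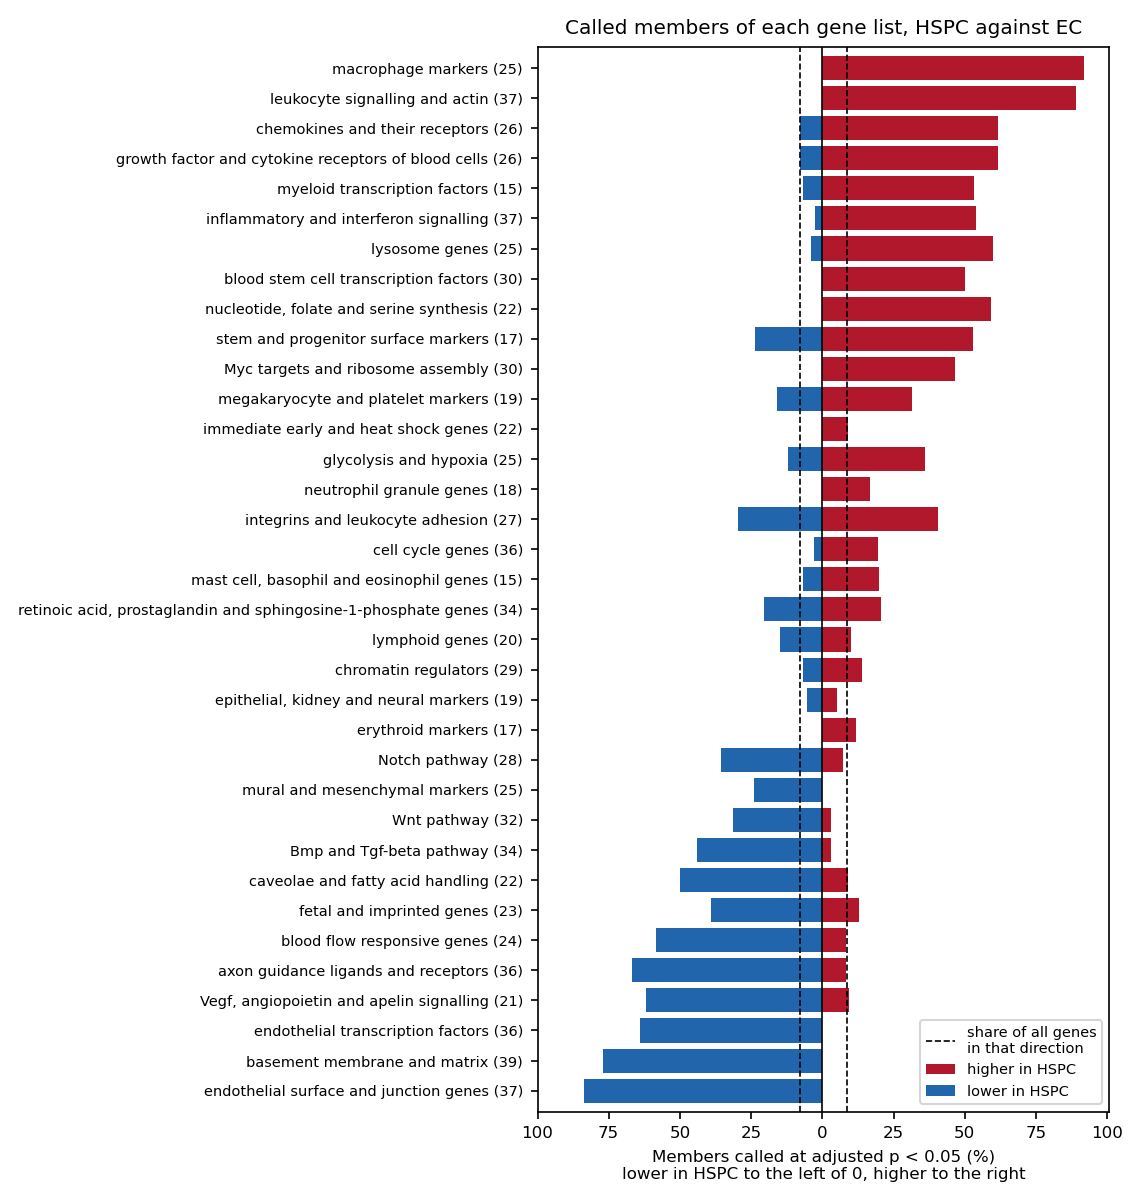
Share of measured members (%) of 35 gene lists called higher in HSPC (red, to the right) or lower in HSPC (blue, to the left), in order of the median difference, with the number of members in brackets. Dashed lines mark the share of all genes called in that direction, 8.55% higher and 7.94% lower; macrophage and leukocyte lists lie far past the right line, endothelial and matrix lists far past the left one, and the list of epithelial, kidney and neural markers, with 5.26% in each direction, inside both.

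Genes of growth and synthesis moved by smaller steps and mostly upward. Of 30 genes of Myc and ribosome assembly, 14 were called higher and 0 lower, with a median of 0.31. Mycn rose by 1.07, whereas Myc had a difference of 0.15 (95% interval -0.21 to 0.50) and was called without HSPC replicate 1 (0.34, adjusted p = 0.0494). The assembly factor Wdr12 rose by 0.94, the RNA polymerase I subunit Polr1b by 0.76 and the nucleolar protein Nop56 by 0.67. Cytosolic ribosomal proteins themselves were called for 1 of 41 genes, Rpl10a (1.15), and the family median was 0.08. Of 22 genes of nucleotide, folate and serine synthesis, 13 were called higher and 0 lower. Phgdh, the first enzyme of serine synthesis, stood at 7.08, 7.23 and 7.64 on the HSPC arrays, against 6.23, 5.42 and 5.77 on the EC arrays, without overlap (difference 1.51, adjusted p = 0.00274), Shmt1 rose by 0.78 and the purine enzyme Gart by 0.68.

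Of 36 cell cycle genes, 7 were called higher and 1 lower (3 without HSPC replicate 1), with a median of 0.11. The mitotic and S-phase genes Mki67 (0.11, 95% interval -0.07 to 0.29), Top2a (0.10, -0.12 to 0.32) and Cdk1 (-0.07, -0.29 to 0.14) were not called. The helicase subunits Mcm7 and Mcm5 rose by 0.59 and 0.43, and 5 of 10 members of the Mcm family were called higher, or 3 without HSPC replicate 1 or 3 or EC replicate 1 or 3. Of 25 genes of glycolysis and hypoxia, 9 were called higher and 3 lower. The glucose transporters Slc2a3 and Slc2a1 differed in opposite directions. Slc2a3 stood at 7.14, 7.55 and 7.20 on the HSPC arrays, against 5.42, 5.29 and 5.45 on the EC arrays and Slc2a1 at 9.55, 9.60 and 9.60 on the HSPC arrays, against 10.40, 10.53 and 10.50 on the EC arrays, neither with overlap (adjusted p = 1.37e-05 and 3.91e-05). Hexokinase Hk2 rose by 1.53. Respiratory chain genes were mostly not called, with 0 higher and 2 lower of 37 complex I subunits and 2 higher and 0 lower of 30 subunits of cytochrome oxidase and ATP synthase.

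Of 29 chromatin regulators, 4 were called higher (13.8%) and 2 lower (6.9%), against 8.55% and 7.94% of all genes, with a median of 0.01. Dnmt3b, a de novo DNA methyltransferase of the embryo, stood at 8.91, 9.23 and 9.40 on the HSPC arrays, against 7.28, 7.05 and 6.97 on the EC arrays, with no overlap, and HC averaged 7.60 (difference 2.08, adjusted p = 2.46e-05). Its relative Dnmt3a rose by 0.58, while the maintenance enzyme Dnmt1 was not called (0.18, 95% interval 0.02 to 0.35). The genome organizer Satb1 rose by 1.27. The histone demethylase Kdm1a, a partner of Gfi1 and Gfi1b, fell by 0.35 and the remodeller Chd7 by 0.57.

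Fetal and imprinted genes were called lower for 9 and higher for 3 of 23 members. The imprinted growth genes Slc38a4 (-2.02), Nnat (-1.72), Peg3 (-1.67) and Peg10 (-1.60) fell. The fetal blood regulators Lin28b (0.84) and Hmga2 (0.75) rose. H19 (-0.26, 95% interval -0.82 to 0.29) and Igf2 (-0.29, -1.02 to 0.43) were not called. Hox genes, which mark position along the body, were called lower for 13 of 40 and higher for 0, with 6 and 7 decreases without HSPC replicates 2 and 3. Hoxd8 stood at 5.88, 5.00 and 4.85 on the HSPC arrays, against 7.32, 7.59 and 7.48 on the EC arrays (difference -2.22, adjusted p = 0.000366), and Hoxa9, a Hox gene of blood stem cells, was not called (0.35, 95% interval 0.03 to 0.67).

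Markers of other tissues bear on what the EC gate held. Mural and mesenchymal genes were called lower in HSPC for 6 of 25 members and higher for 0 (3 lower without HSPC replicate 2 or EC replicate 2, and 2 without EC replicate 1), with summed values (log2) of 10.01 to 10.40 in HSPC and 10.54 to 10.76 in EC. Abcc9, a channel subunit of pericytes, fell by 2.37, while Pdgfrb (-0.10), Acta2 (0.02) and Myh11 (-0.02) were not called, and Tbx18, Kcnj8, Dcn, Lum and Des were at background in both populations. The part of these genes in the matrix result was not tested. Of 19 epithelial, kidney and neural genes, 1 was called higher and 1 lower (5.26% each, under the shares of all genes). Their summed values were 9.63 to 10.02 in HSPC and 9.77 to 10.07 in EC. Krt18, a keratin of simple epithelia, stood at 8.62, 7.82 and 8.39 on the HSPC arrays, against 6.75, 6.23 and 6.17 on the EC arrays, and Stmn2, a tubulin-binding protein of neurons, at 6.83, 5.51 and 5.62 on the HSPC arrays, against 8.60, 8.47 and 8.21 on the EC arrays. Epcam, Alb, Afp and Ttr were at background in both. Genes of the immediate early and heat shock responses, which cell isolation can set off, were called higher for 2 of 22 and lower for 0. The 9.09% higher is near the 8.55% of all genes (5 higher without HSPC replicate 1 and 1 without HSPC replicate 3). Fos at 0.13, Jun at 0.23 and Egr1 at 0.45 were not called, and the chaperone gene Dnajb1 at 0.74 was called. The list's median distance from the EC mean was -0.10, 0.30 and 0.59 on HSPC replicates 1, 2 and 3. On EC replicates 1, 2 and 3 it was 0.25, 0.07 and -0.45. The arrays within each population thus differed too widely to say whether this response was alike in both.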

How the data were processed

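Expression in HSPC (CD144+CD45+), EC (CD144+CD45-) and HC (CD144-CD45+) was measured on Affymetrix mouse gene arrays, 3 per population. Per the labels' protocols, total RNA was amplified with Ovation Pico System V2 and biotin labelled. The labels name both MouseGene 1.0 ST and 2.0 ST arrays without saying which was used for which sample. The deposited values are log2 expression per probe set, made with RMA and Partek per the submitters' processing notes. Not given in the sources used here were their versions, the array description and the genome build. RMA equalizes array distributions, here with medians of 5.41 to 5.51, and compresses differences at low signal. Of all probe sets, 46.6% held an identical value on 2 or more arrays.

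Of 21115 probe sets, 20405 had 1 gene symbol, 0 several and 710 none. The 20405 were fitted together over all 9 arrays in limma 3.58.1 (R 4.3.3, lmFit and eBayes, 6 residual and 2.75 prior degrees of freedom). Group means were compared as HSPC minus EC, and p-values were adjusted by Benjamini-Hochberg over all 20405 genes. Every adjusted p in the text is limma's, with a threshold of 0.05. An exact permutation test of 3 against 3 arrays cannot give a two-sided p under 0.1 and was not used. The number of arrays limits the precision. Background was set at the 95th percentile of the values of 1289 genes for olfactory or vomeronasal receptors. The fit was tested on simulated data drawn with 1 spread per gene in all populations. In the real data, among genes called at least 2-fold lower, the median SD was 0.36 in HSPC and 0.15 in EC. The simulation did not cover such a difference in spread. Python 3.11.15, pandas 2.3.3 and matplotlib 3.10.9 made the summaries and figures.

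The comparison, gene lists and families were chosen with earlier results of these data known. The 35 lists hold 987 entries, of which 928 were measured (871 different genes, 54 in more than 1 list) and 59 were not analysed here. Genes were named by rule, namely the 15 largest called increases and decreases, the 5 largest called in each direction and the 3 smallest differences of each list, the 3 largest in each direction of families with 4 or more called members, Cdh5 and Ptprc, and markers of other cell types. That rule gave 443 genes, and further names were chosen after their values were seen. Promoters came from RefSeq GRCm38.p6. Alternatives concerned the arrays in the fit, a block for replicate number, the variance model, scaling, dim or unnamed probe sets, and each array left out. A further gene family is not reported here.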

Additional observations from a re-analysis of the deposited data

How the results depend on the processing

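Under 16 alternative settings the number of called genes ran between 2672 (without HSPC replicate 2) and 3555, against the 3366 reported, and calls of at least 2-fold between 1041 and 1386, against 1221. Leaving out 1 array at a time gave 2672 to 3512 calls. Increases made up 51.8% of calls, 41.5% with arrays centred on their medians, which shifted the median of all genes to -0.05, against 0.01 as deposited, and 48.0% after repeated quantile normalization. Of 577 named genes, 0 reversed, and 386 of the 436 called ones kept their call in every setting that tested them. The fit of the 6 HSPC and EC arrays alone lost 27 calls among them. Cdh5, not called, was called with the trend and robust options (adjusted p = 0.0484) and with dim probe sets left out (adjusted p = 0.034), which also gave calls for Emcn and Pf4 (adjusted p = 0.0363 and 0.0387). The replicate numbers were not taken to pair the samples, since the labels do not say what they share. The deviations of same-numbered HSPC and EC arrays correlated at 0.049, 0.063 and 0.009, and those of other pairs at -0.066 to 0.017. HSPC replicates 1 and 2 correlated best with the EC replicate of the same number, and HSPC replicate 3 with EC replicate 1 (0.017). These weak correlations do not settle whether the samples were paired. With the replicate block, 3274 genes were called, 1651 higher and 1623 lower, and 1227 by at least 2-fold, and Cdh5, Emcn and Pf4 were called (adjusted p = 0.0336, 0.048 and 0.0413).

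Of 560 recomputed list medians 547 moved by less than the spread between replicates and 0 reversed. With dim probe sets left out, so that fewer members were counted, the median was 0.40 for integrins and leukocyte adhesion, 0.55 for stem and progenitor surface markers, 0.82 for neutrophil granule genes and 0.34 for mast cell, basophil and eosinophil genes. With arrays centred on their medians it was 0.035 for the mast cell list, -0.35 for the Wnt pathway, 0.045 for cell cycle genes and 0.25 for Myc and ribosome assembly. Without 1 array at a time it ran from 0.14 to 0.22 for neutrophil granule genes, from 0.10 to 0.17 for the mast cell list, from -0.32 to -0.20 for the Wnt pathway and from 0.11 to 0.16 for cell cycle genes. The cause was not tested in the last 2 sets. Of 2560 list and family counts, 152 moved by over 1.5 times. Genes near background have compressed differences, which limits what can be seen there.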
